A study of Mus musculus with 12 samples.

Results

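Markers of the excitatory neurons of cortical layers 2 to 4, 8 genes in all, were followed in the medial prefrontal cortex (mPFC) of mice. They were Cux1, Cux2, Rorb, Lamp5, Rasgrf2, Pou3f2, Lmo4 and Mdga1, chosen by name as known layer markers, with earlier results of these data known. All 8 were among the 17283 genes of the deposited table, and all 8 passed the filter that left 13586 genes for testing. The study compared C57 mice (genotype given as WT) with BTBR mice, which are inbred and serve as an autism model. Mice of each strain were injected intraperitoneally for 7 days with the DMSO solvent (vehicle) or with astragaloside IV (ASIV), a plant saponin from Astragalus. This gave 4 groups of 3 libraries each: C57 vehicle, C57 ASIV, BTBR vehicle and BTBR ASIV. The labels name no age, sex or dose and do not say whether the 3 libraries of a group came from separate animals, so p-values measure the spread between these libraries, which may be technical. The series asks whether ASIV improves neurotransmission in the BTBR model.

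The cerebral cortex is built in layers. Neurons of the upper layers are the last excitatory neurons to be born, and they send most of their axons to other parts of the cortex, across the midline included. Neurons of the deep layers project mainly to targets below the cortex. Cux1 and Cux2 are homeodomain transcription factors that shape the dendrites and synapses of upper layer neurons. Pou3f2 (also called Brn2) is a POU domain transcription factor needed for the production and migration of these neurons, and Rorb is an orphan nuclear receptor best known from layer 4, a layer that the mouse mPFC largely lacks. Lmo4 is a LIM domain protein that acts as a transcriptional cofactor. Rasgrf2 is an exchange factor that activates Ras and Rac in response to calcium. Lamp5 is a membrane protein of neuronal endosomes, and Mdga1 is a membrane-anchored protein that binds neuroligins and restrains synapse formation. None of the 8 is confined to upper layer excitatory neurons: Lamp5 also marks a class of interneurons, Pou3f2 is also used by glial precursors, and Cux1 is expressed in many cell types.

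Values are FPKM, fragments counted per kilobase of exon and adjusted for sequencing depth, so that levels can be compared between genes. The libraries held 16166328 to 18660038 fragments, and the members were covered by 219 (Pou3f2 in BTBR vehicle replicate 3) to 4694 fragments (Lmo4 in C57 vehicle replicate 1). The BTBR vehicle libraries stood apart: mRNAs of the mitochondrial genome made up 0.342 to 0.640% of their fragments, against 4.48 to 4.83% in C57 vehicle, 2.96 to 4.72% in C57 ASIV and 3.03 to 3.23% in BTBR ASIV. The tissue carried Slc17a7, the vesicular glutamate transporter of cortical excitatory neurons, at 360.6 ± 24.1 FPKM in C57 vehicle (SD, n = 3). Genes of striatal projection neurons (6 of 6 detected) summed to 54.3 to 157.6 FPKM in C57 vehicle, 41.6 to 187.7 in C57 ASIV, 65.3 to 153.7 in BTBR vehicle and 40.4 to 334.2 in BTBR ASIV. Scnn1a, a marker of layer 4, stood at 0.562 ± 0.090 FPKM in C57 vehicle.

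The members lie on 7 chromosomes, and only Cux1 and Cux2 share one, chromosome 5. Under vehicle, 20.8% of all genes tested were called lower and 22.3% higher in BTBR than in C57 mice (limma adjusted p under 0.05). Of the 8 members, 4 were called lower: Lamp5, Pou3f2, Rasgrf2 and Cux1. Their promoters are shown because these 4 genes differed in the same comparison. Each line gives the 250 bases before a RefSeq transcription start (GRCm38.p6), 5′ to 3′ on the gene's strand, with capitals marking matches to the motifs named next.
Lamp5, chr2:136052089-136052338, plus strand: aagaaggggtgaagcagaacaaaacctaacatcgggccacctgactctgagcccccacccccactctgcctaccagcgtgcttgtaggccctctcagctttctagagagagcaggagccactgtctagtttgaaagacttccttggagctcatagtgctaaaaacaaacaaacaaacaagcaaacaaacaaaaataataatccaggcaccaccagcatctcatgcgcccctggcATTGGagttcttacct
Pou3f2, chr4:22488367-22488616, minus strand: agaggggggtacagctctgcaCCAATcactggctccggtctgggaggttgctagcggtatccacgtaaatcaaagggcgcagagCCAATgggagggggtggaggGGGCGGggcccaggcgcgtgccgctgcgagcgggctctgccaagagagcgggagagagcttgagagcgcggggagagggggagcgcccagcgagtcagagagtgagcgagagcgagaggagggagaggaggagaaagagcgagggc
Rasgrf2, chr13:92131829-92132078, minus strand: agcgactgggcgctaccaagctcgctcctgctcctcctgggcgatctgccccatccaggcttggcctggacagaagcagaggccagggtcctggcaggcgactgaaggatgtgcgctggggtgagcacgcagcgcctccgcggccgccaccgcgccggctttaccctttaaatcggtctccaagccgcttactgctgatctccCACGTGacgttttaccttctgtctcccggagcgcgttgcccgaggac
Cux1, chr5:136565982-136566231, minus strand: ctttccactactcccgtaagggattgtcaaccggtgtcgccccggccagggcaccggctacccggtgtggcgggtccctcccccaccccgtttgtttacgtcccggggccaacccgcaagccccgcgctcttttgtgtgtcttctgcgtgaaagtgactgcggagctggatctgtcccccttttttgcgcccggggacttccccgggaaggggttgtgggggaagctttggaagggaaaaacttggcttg
The motifs were searched on both strands. The TATA box was read as TATAAA and the GC box as GGGCGG. The CCAAT box was read as CCAAT and the E-box as CACGTG. The cAMP response element was read as TGACGTCA and the octamer as ATTTGCAT. In the 8 members no match to one motif overlapped a match to another. Lamp5 has a CCAAT match 16 bases before its RefSeq start. Pou3f2 has 2 CCAAT matches and 1 GC box, Rasgrf2 has 1 E-box 47 bases before its start, and Cux1 has none of the 6. No motif was found in all 4. Over all 8 members, 4 promoters hold a GC box and 3 a CCAAT match, where 32.7% and 33.8% of 32851 promoters do; 6.02% hold the E-box. The Lamp5 promoter is the exception in base composition, with 49.2% G and C and 3 CpG. The other 7 run from 62.8% (Cux1) to 82.4% (Lmo4), against a median of 52.4% over all promoters. The RefSeq starts of Cux1 and Mdga1 lie 1509 and 82205 bases from the outermost start that GENCODE M21 gives for these genes. Those of Lamp5, Rasgrf2 and Cux2 lie 100, 172 and 251 bases from it. The CCAAT match of Lamp5 falls inside the interval that GENCODE M21 gives for the gene.

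In C57 vehicle mice the members ranged over a wide span of levels. Lmo4 was the highest at 66.5 ± 4.80 FPKM, followed by Lamp5 at 55.5 ± 1.56, Rasgrf2 at 20.9 ± 0.429, Cux2 at 9.84 ± 1.15, Pou3f2 at 5.63 ± 0.352 and Cux1 at 4.35 ± 0.263 (SD, n = 3). Each of the first 5 lay above the next without overlap of the 3 libraries. Mdga1 at 3.79 ± 1.11 and Rorb at 3.40 ± 0.224 closed the order, and the ranges of Cux1 and Mdga1, and of Mdga1 and Rorb, overlapped. The 5 highest members kept their order in all 4 groups, while Cux1, Mdga1 and Rorb changed places.

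**Figure D1:**
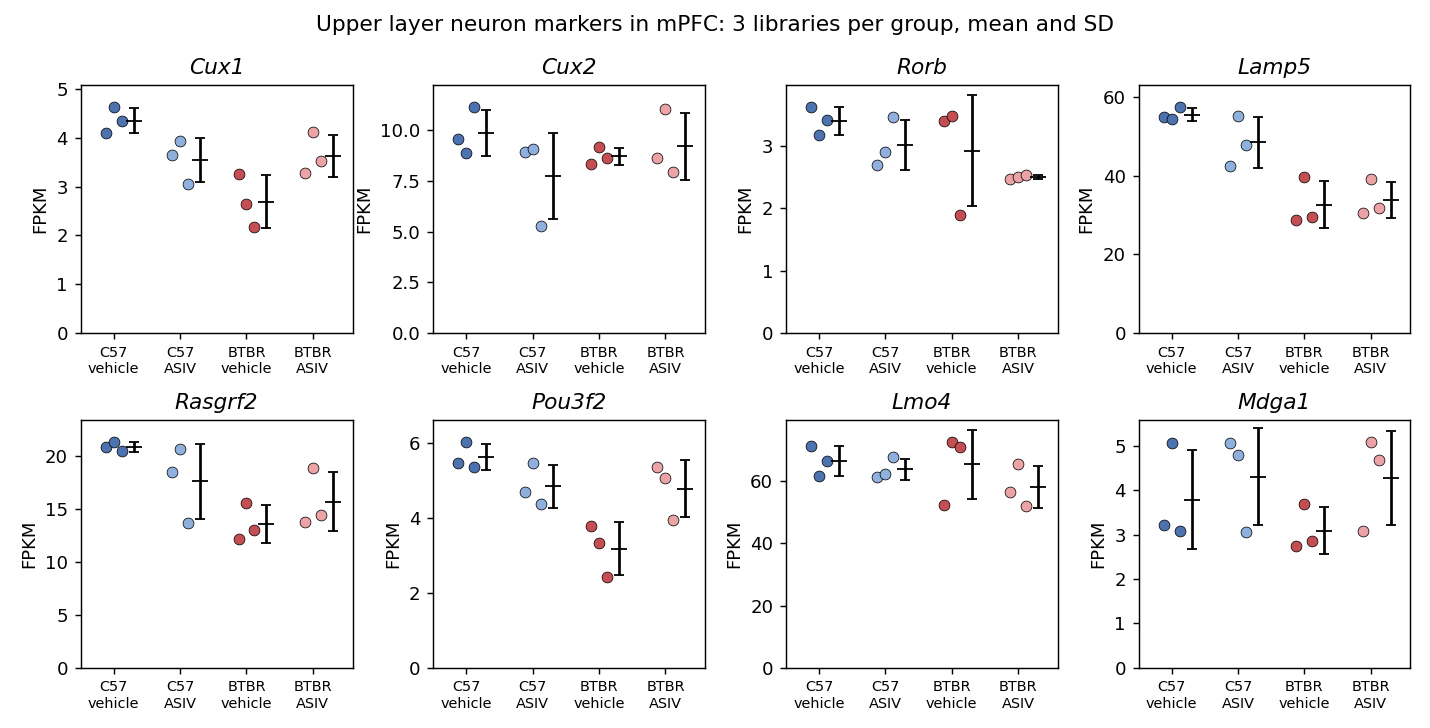
FPKM of the 8 members by group, with 1 point per library and the mean and SD of 3 libraries beside the points. Lamp5, Rasgrf2, Pou3f2 and Cux1 have their 3 BTBR vehicle libraries below all 3 C57 vehicle libraries, while Cux2, Rorb, Lmo4 and Mdga1 overlap.

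Under vehicle, 4 of the 8 members were lower in BTBR than in C57 and none was higher, by limma with Benjamini-Hochberg adjustment over the 13586 genes. Among all genes tested, 20.8% were called lower and 22.3% higher in this comparison. The median log2 difference was -0.38 over the members and 0.01 over all genes tested. The groups did not overlap in the same 4 members, where 25.9% of all genes had BTBR libraries wholly below the C57 ones. In bulk tissue, fewer cells of a type and less RNA per cell cannot be told apart. The 4 calls also rest on the BTBR vehicle libraries, where mitochondrial mRNAs made up 0.342 to 0.640% of fragments. In C57 vehicle this share was 4.48 to 4.83%. After rescaling without mitochondrial genes, 4 members were again lower, where 23.9% of all genes were called lower and 18.7% higher. That rescaling moved the log2 differences of all genes by a median of -0.055, toward lower values in BTBR. It could therefore hardly lose a lower call and does not bear on the part of the mitochondrial share. When both strains had received ASIV, 2.53% of all genes differed in either direction. The part of this library difference in the 4 calls was not tested.

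Of the membrane and signalling proteins, Lamp5 (chromosome 2, 136052239 to 136069917, mm10) was lower in BTBR. It had 54.8, 54.4 and 57.3 FPKM in the C57 vehicle libraries and 28.8, 39.5 and 29.5 in the BTBR vehicle libraries. The log2 difference was -0.76 ± 0.14 (SE, limma adjusted p = 0.000884), a fold of 1.70 of FPKM + 1. Every BTBR library lay below every C57 library, and replicate 2 was the highest of the BTBR libraries. Rasgrf2, the Ras exchange factor (chromosome 13, 91880400 to 92131656), had 20.8, 21.3 and 20.5 FPKM in C57 vehicle and 12.2, 15.6 and 13.0 in BTBR vehicle. The log2 difference came to -0.59 ± 0.15 (limma adjusted p = 0.00707). Mdga1 (chromosome 17, 29827949 to 29970087) had 3.21, 5.07 and 3.08 FPKM in C57 vehicle and 2.74, 3.70 and 2.84 in BTBR vehicle. In both groups replicate 2 was the high one, the groups overlapped, and the log2 difference of -0.21 ± 0.20 was not called (limma adjusted p = 0.428).

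Of the transcription factors, Pou3f2, a gene of 1 exon (chromosome 4, 22482780 to 22488366), had 5.49, 6.03 and 5.37 FPKM in C57 vehicle and 3.80, 3.34 and 2.42 in BTBR vehicle. The log2 difference was -0.68 ± 0.14 (limma adjusted p = 0.00178). Cux1 (chromosome 5, 136248135 to 136567490) had 4.09, 4.62 and 4.34 FPKM in C57 vehicle and 3.25, 2.65 and 2.17 in BTBR vehicle, a log2 difference of -0.55 ± 0.12 (limma adjusted p = 0.00335). For both genes all 3 BTBR libraries were below all 3 C57 libraries, with replicate 3 the lowest. The Cux1 locus also encodes the Golgi protein CASP from shared exons, so the gene value does not separate the transcription factor from it, and 394 of its 20024 exon bases overlap those of Gm16599 on the opposite strand. Cux2, the paralog of Cux1 (chromosome 5, 121856366 to 122050102), had 9.55, 8.87 and 11.1 FPKM in C57 vehicle and 8.34, 9.17 and 8.63 in BTBR vehicle. Those groups overlapped, and the log2 difference was -0.15 ± 0.17 (limma adjusted p = 0.486). Whether Cux1 and Cux2 differ from each other in their strain difference was not tested.

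Rorb and Lmo4 did not pass either. Rorb (chromosome 19, 18930605 to 19111196) had 3.61, 3.17 and 3.42 FPKM in C57 vehicle and 3.40, 3.47 and 1.90 in BTBR vehicle (log2 difference -0.19 ± 0.15). Replicates 1 and 2 of BTBR vehicle lay within the C57 range and replicate 3 below it, and without BTBR vehicle replicate 3 the difference was 0.01. Lmo4 (chromosome 3, 144188530 to 144205220) had 71.3, 61.7 and 66.5 FPKM in C57 vehicle and 52.4, 72.4 and 71.0 in BTBR vehicle, a log2 difference of -0.04 ± 0.13. Here replicate 1 was the low BTBR library, replicate 2 lay above the C57 range and replicate 3 within it. The 4 calls were made again in each of the alternatives in which the gene was tested, with adjusted p up to 0.00487 for Lamp5, 0.0283 for Rasgrf2, 0.00996 for Pou3f2 and 0.0172 for Cux1.

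**Figure D2:**
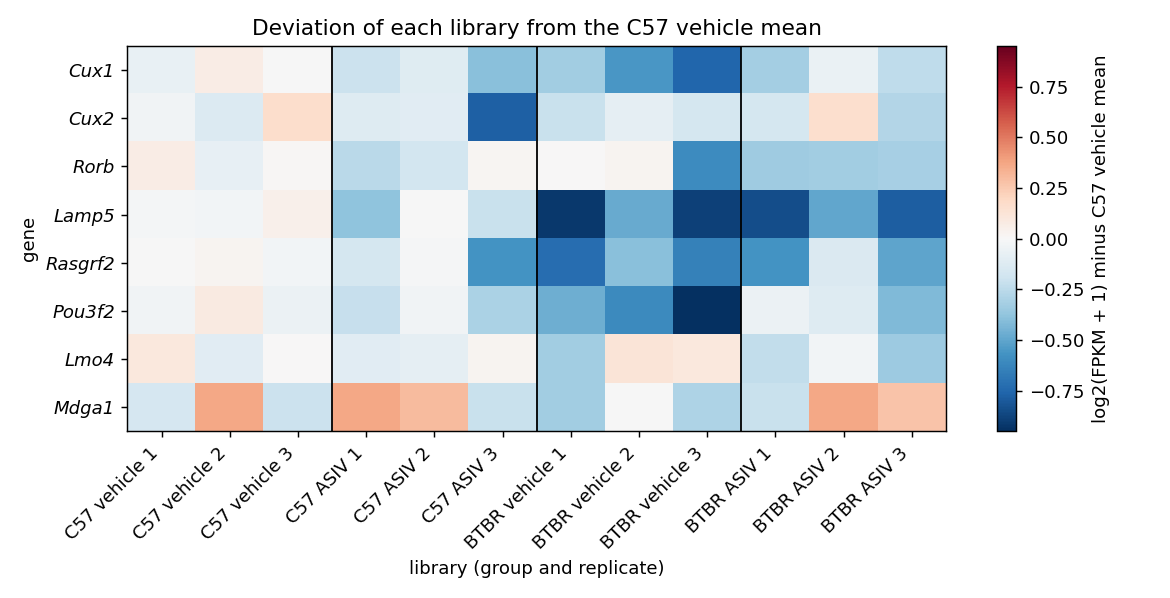
Colour gives log2(FPKM + 1) of each library minus the C57 vehicle mean of that gene, with genes in rows and the 12 libraries in columns. The median over the 8 genes runs from -0.62 in BTBR vehicle replicate 3 to 0.00 in C57 vehicle replicates 2 and 3.

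The libraries of a group did not move evenly over the members. In BTBR vehicle, replicate 2 was the highest library for 6 of the 8 genes, replicate 1 the lowest for 5 and replicate 3 the lowest for 3. In BTBR ASIV, replicate 2 was likewise the highest for 6, and in C57 ASIV replicate 3 was the lowest for 5. Markers of other cells also varied between these libraries. The sum of striatal genes was 40.4 FPKM in BTBR ASIV replicate 2, against 189.1 and 334.2 in replicates 1 and 3. In BTBR vehicle it was 153.7 FPKM in replicate 2, against 138.5 and 65.3 in replicates 1 and 3. The sum of 7 oligodendrocyte genes was 447.7, 864.5 and 861.1 FPKM in replicates 2, 1 and 3 of BTBR ASIV. In BTBR vehicle the oligodendrocyte sum was 497.2, 1181 and 839.3 FPKM in the same order. C57 ASIV replicate 3 had a striatal sum of 187.7 FPKM, against 43.5 and 41.6 in replicates 1 and 2. Its oligodendrocyte sum was 956.7 FPKM, against 567.3 and 583.0, and its sum of deep layer genes 252.1, against 187.4 and 172.3. The part of these markers in the members' values was not tested.

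With ASIV in BTBR mice, 1 of the 8 members rose and none fell, where 13.7% of all genes were called higher and 15.4% lower. The member that rose was Pou3f2, from 3.80, 3.34 and 2.42 FPKM under vehicle to 5.36, 5.07 and 3.94 under ASIV. All 3 treated libraries lay above all 3 vehicle libraries, and the log2 difference was 0.47 ± 0.14 (limma adjusted p = 0.0204). The call was lost without BTBR vehicle replicate 3 (0.33, limma adjusted p = 0.0749), without BTBR ASIV replicate 1 (0.40, 0.0730) or 2 (0.43, 0.0631), and in a fit on only the 6 libraries compared (limma adjusted p = 0.0785). Cux1 also had its groups apart, at 3.27, 4.11 and 3.52 FPKM under ASIV, but its difference of 0.33 ± 0.12 was not called (limma adjusted p = 0.0547). It was called without C57 ASIV replicate 3 (limma adjusted p = 0.0489), without BTBR vehicle replicate 1 (0.44, 0.0186), after rescaling without mitochondrial genes (0.37, 0.0378) and with voom (0.44, 0.0320). Over all genes, 19% had their BTBR ASIV libraries wholly above the BTBR vehicle ones.

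The other 6 members overlapped their vehicle range under ASIV. Lamp5 had 30.5, 39.1 and 31.7 FPKM in BTBR ASIV, and its difference from BTBR vehicle was 0.05 ± 0.14 (limma adjusted p = 0.796). Rasgrf2 had 13.7, 18.9 and 14.5 FPKM (0.19 ± 0.15), with replicate 2 the high library in each case. Mdga1 had 3.07, 5.08 and 4.68 FPKM (0.35 ± 0.20) and Cux2 8.62, 11.1 and 7.93 (0.06 ± 0.17). Lmo4 had 56.4, 65.3 and 52.1 FPKM (-0.16 ± 0.13). Rorb had the closest replicates of any member and group, 2.47, 2.49 and 2.54 FPKM (-0.14 ± 0.15). It was called lower under ASIV once BTBR vehicle replicate 3 was left out (-0.34, limma adjusted p = 0.0326).

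**Figure D3:**
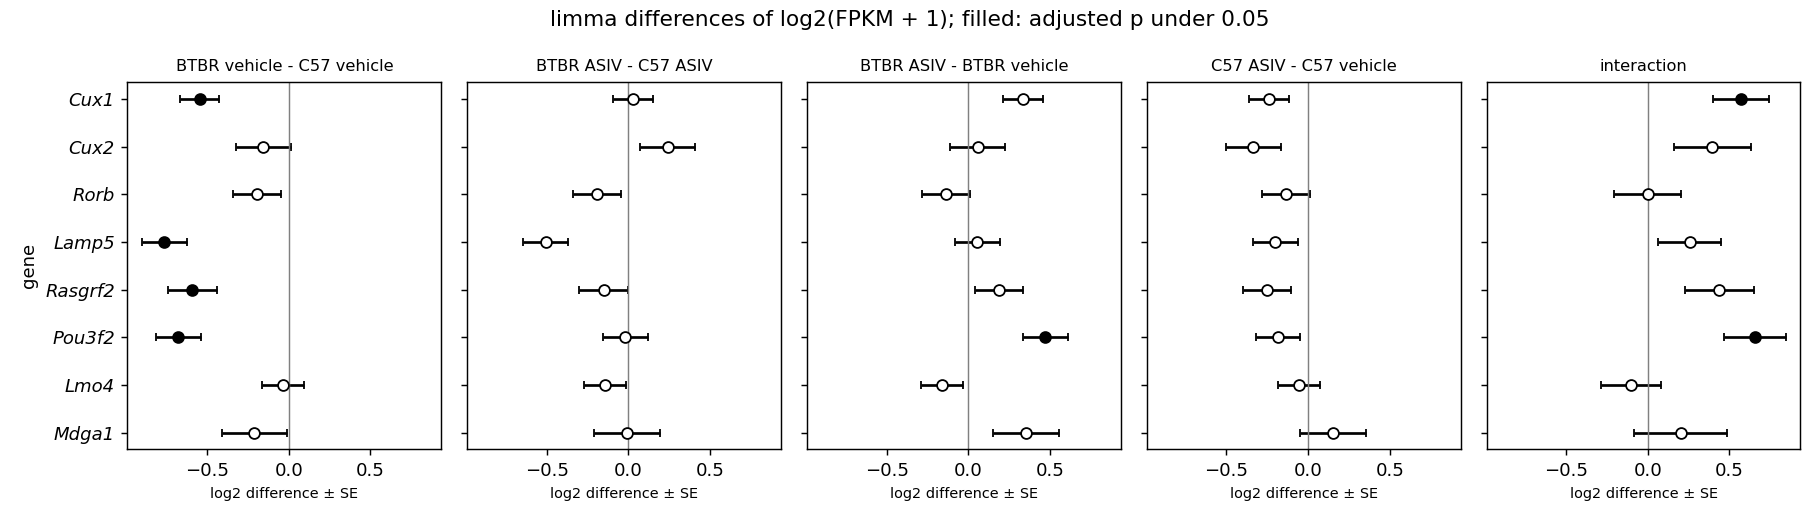
Log2 difference and SE of each member in the 5 comparisons, with filled points for an adjusted p under 0.05. Filled points are Cux1, Lamp5, Rasgrf2 and Pou3f2 between the strains under vehicle, Pou3f2 for ASIV in BTBR, and Cux1 and Pou3f2 for the interaction.

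In C57 mice none of the 8 members passed with ASIV, nor did any of the 13586 genes in limma, with 417 genes at an unadjusted p under 0.05 and 0 members called by voom. Of the members, 0 had an unadjusted p under 0.05. The values were lower under ASIV in 7 of the 8, with log2 differences from -0.34 ± 0.17 (Cux2) to -0.06 ± 0.13 (Lmo4), and Mdga1 stood at 0.15 ± 0.20. The median over all genes tested was 0.002. The 8 values come from the same libraries, so their directions are not independent. Cux2 had 8.90, 9.04 and 5.29 FPKM in C57 ASIV, and the low library was replicate 3. That library was also the lowest of its group for Rasgrf2 (13.7 FPKM against 18.5 and 20.7) and Cux1 (3.06 against 3.65 and 3.94). Without it the Cux2 difference was -0.12. Cux1 was the 1 member whose C57 ASIV libraries all lay below the C57 vehicle ones, as did 6.98% of all genes.

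The response to ASIV differed between the strains for 2 of the 8 members, where the interaction was called higher in 6.91% and lower in 7.36% of all genes (7.95 and 5.48% after rescaling without mitochondrial genes). For Pou3f2 the ASIV difference in BTBR minus that in C57 was 0.66 ± 0.19 (limma adjusted p = 0.0390), and for Cux1 it was 0.57 ± 0.17 (0.0427). Both calls were close to the threshold. That of Pou3f2 was kept among the left-out libraries only without C57 ASIV replicate 2, BTBR vehicle replicate 1 or 2, or BTBR ASIV replicate 3. That of Cux1 was kept only without C57 ASIV replicate 2, BTBR vehicle replicate 1 or BTBR ASIV replicate 1. The adjusted p reached 0.0939 for Pou3f2 and 0.105 for Cux1 over all alternatives. The interaction was 0.44 ± 0.21 for Rasgrf2 (limma adjusted p = 0.186) and 0.40 ± 0.24 for Cux2 (0.296).

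Between BTBR and C57 mice that had both received ASIV, none of the 8 members was called, where 2.53% of all genes were. Lamp5 was the closest, with 42.3, 55.2 and 47.6 FPKM in C57 ASIV and 30.5, 39.1 and 31.7 in BTBR ASIV. All BTBR libraries lay below all C57 libraries, and the log2 difference was -0.51 ± 0.14 (limma adjusted p = 0.0760). It was called without BTBR vehicle replicate 2 (adjusted p = 0.0270) or without BTBR ASIV replicate 2 (-0.61, 0.0405), and over all alternatives the adjusted p ran from 0.0270 to 0.267. Rorb was the other gene whose libraries did not overlap (-0.19 ± 0.15), where 12.7% of all genes had BTBR ASIV wholly below C57 ASIV. Pou3f2 (-0.02 ± 0.14), Cux1 (0.03 ± 0.12) and Rasgrf2 (-0.15 ± 0.15) overlapped. The comparisons share libraries with each other, so their values are set side by side and are not independent.

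Further genes of upper layer neurons moved both ways. Of 15 such genes 14 were tested. Under vehicle 5 were lower and 2 higher in BTBR, with a median of -0.0035, where 20.8% of all genes were lower and 22.3% higher. Among the lower genes were Wfs1, a protein of the endoplasmic reticulum (-0.97 ± 0.20), and Stard8, a GTPase activator (-0.75 ± 0.19). Pou3f1, a relative of Pou3f2, went the other way (0.51 ± 0.12). With ASIV in BTBR 1 rose and 1 fell, where 13.7% of all genes were called higher and 15.4% lower. Wfs1 rose by 1.00 ± 0.20, from 17.0 ± 4.68 to 34.9 ± 8.29 FPKM.

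Genes of the deep layers had a median of 0.27 between the strains under vehicle, with 3 higher and 2 lower of 15 tested. The shares among all genes tested were 22.3% higher and 20.8% lower, for this list and those that follow. Hs3st4, a heparan sulfate sulfotransferase of layer 6 (1.27 ± 0.27), Rprm (0.78 ± 0.22) and Tle4, a corepressor of layer 6 neurons (0.41 ± 0.14), were higher. Etv1, a transcription factor of layer 5, was lower (-0.50 ± 0.14). Genes shared by excitatory neurons of all layers had 6 lower and 1 higher of 10 and a median of -0.60, including Camk2a, a kinase of the postsynaptic density (-0.66 ± 0.12), Slc30a3, the zinc transporter of glutamatergic vesicles (-0.57 ± 0.10), Emx1 (-0.63 ± 0.12) and Neurod1 (-0.73 ± 0.15). The higher gene was the most abundant of the list, Nrgn, a calmodulin-binding protein of dendrites, whose mean level was 1177 ± 92.9 FPKM under vehicle in C57 mice and 1736 ± 216.6 in BTBR (0.56 ± 0.14). Slc17a7 was not called (-0.06 ± 0.13). The summed FPKM of the list was 2185 to 2456 in C57 vehicle and 2465 to 2740 in BTBR vehicle, higher in BTBR, whereas the median difference of its genes was below 0. Genes of all neurons had 3 lower and 0 higher of 9 (median -0.23), with Snap25, of vesicle fusion, at -1.08 ± 0.17. The lists were described by counts, and no test compared them.

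**Figure D4:**
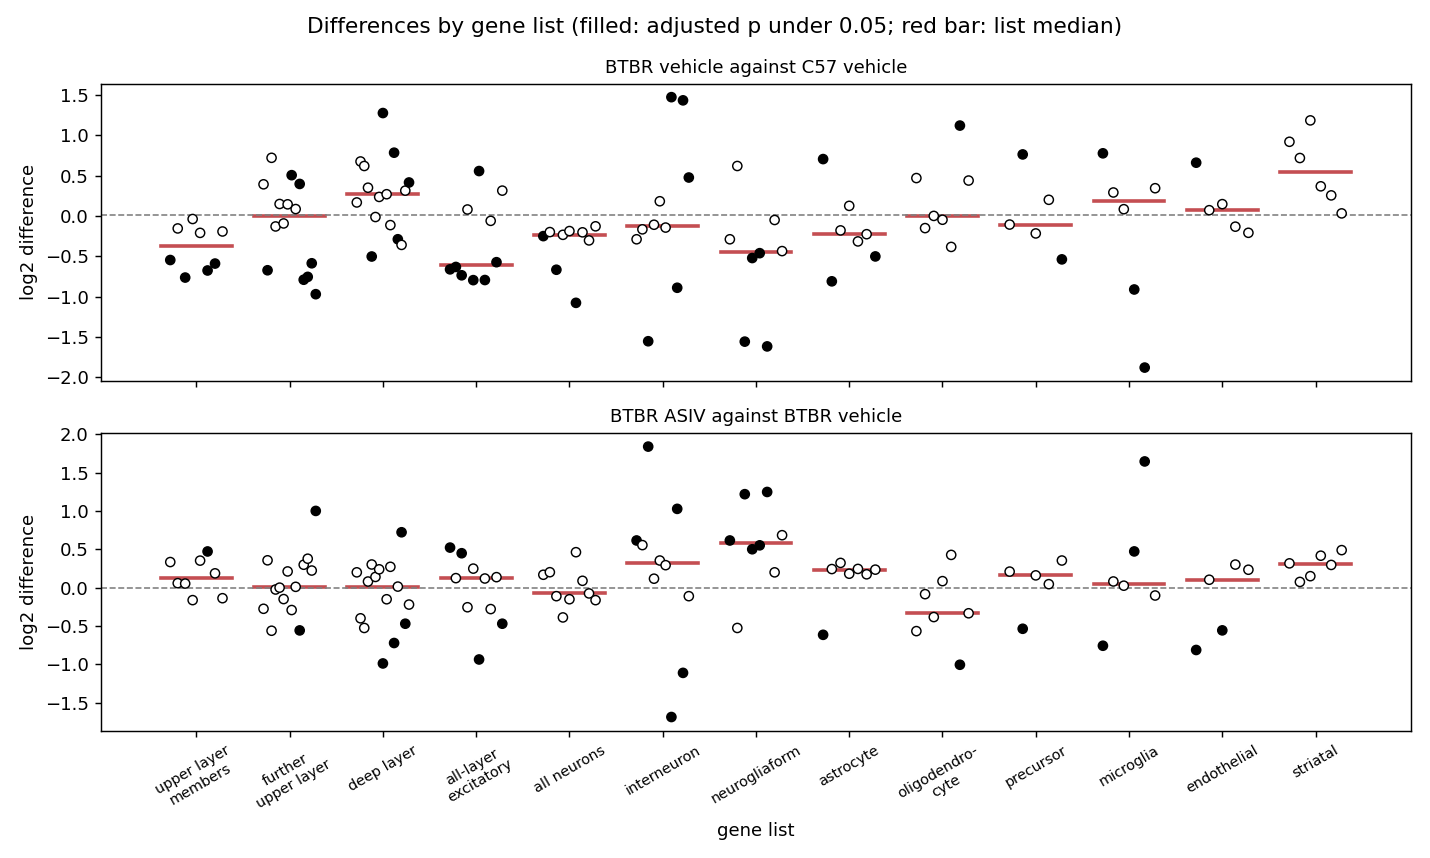
Each point is the limma log2 difference of 1 gene, grouped by gene list, for BTBR vehicle against C57 vehicle (top) and BTBR ASIV against BTBR vehicle (bottom); filled points passed, the red bar is the list median and the dashed line the median of all genes. In the top panel the medians of the upper layer members (-0.38), the excitatory genes of all layers (-0.60) and the neurogliaform genes (-0.45) lie below the line. Those of the deep layer genes (0.27) and the striatal genes (0.54) lie above it. The median of the further upper layer genes (-0.0035) lies close to the line, and other lists lie on both sides.

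Because Lamp5 also marks neurogliaform interneurons, 8 genes of these and related interneurons were read beside it. Under vehicle 4 were lower and 0 higher in BTBR, and their sum was 171.5 to 186.7 FPKM in C57 vehicle and 61.0 to 84.8 in BTBR vehicle. Of all genes, 20.8% were called lower and 22.3% higher under vehicle, and 13.7% higher and 15.4% lower with ASIV in BTBR. Among the 8, 5 rose and 0 fell with ASIV in BTBR, to a sum of 141.4 to 160.6 FPKM. Npy and Id2 made up most of these sums. The other 6 genes summed to 19.2 to 24.2 FPKM in C57 vehicle, 18.4 to 20.6 in BTBR vehicle and 22.7 to 27.6 in BTBR ASIV, so that the vehicle ranges overlapped. Id2, an inhibitor of basic helix-loop-helix factors, had a difference of -1.56 ± 0.12 between the strains and rose by 1.22 ± 0.12 with ASIV. Npy, neuropeptide Y, had -1.62 ± 0.22 and 1.25 ± 0.22, Nos1, a nitric oxide synthase, -0.46 ± 0.10 and 0.55 ± 0.10, and Ndnf -0.52 ± 0.18 and 0.50 ± 0.18. Cplx3, a complexin that is also in the deep layer list, had values in the other direction that were not called (0.62 ± 0.31 between the strains and -0.52 ± 0.31 with ASIV). Lamp5 stood at -0.76 between the strains and, not called, at 0.05 with ASIV. The part of these cells in the Lamp5 values was not tested.

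Markers of other cells were mixed between the strains under vehicle, where 22.3% of all genes were called higher and 20.8% lower. Astrocyte genes had 1 higher and 2 lower of 7, with Aldh1l1 at 0.70 ± 0.12 and Aqp4, the water channel, at -0.81 ± 0.20. Oligodendrocyte genes had 1 higher and 0 lower of 7 (Mog, 1.12 ± 0.32). Genes of oligodendrocyte precursors had 1 higher and 1 lower of 5, with Olig1 at 0.76 ± 0.15 and Sox10 at -0.54 ± 0.19. Microglial genes had 1 higher and 2 lower of 6, endothelial genes 1 higher and 0 lower of 5, and striatal genes 0 of 6 called, with a median of 0.54. The list of general interneuron markers, which shares Adarb2 with the neurogliaform list, had 3 higher and 2 lower of 10. The part of these cells in the members' values was not tested.

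For the 4 members called in any comparison, the genes with the most similar pattern were taken as those with the smallest root mean square difference of centred log2(FPKM + 1) over the 12 libraries, among 11878 protein-coding genes. For Cux1, whose own spread was 0.23 on this scale, they were Hint3 (0.0572), Sox9 (0.0780), an astrocyte transcription factor, and Il6st (0.0819). For Pou3f2 they were Actn4 (0.0951), Parva (0.107) and Ambra1 (0.108), for Rasgrf2 Boc (0.1004), Hivep2 (0.107) and Cnksr2 (0.109), and for Lamp5 Arhgap32 (0.121) and Fbxo34 (0.124). None of the genes named here appeared for more than 1 member, and none was itself a member.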

How the data were processed

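RNA of the mPFC was sequenced in 12 libraries, with groups and replicate numbers taken from the labels. The deposited table holds FPKM computed by the authors, 1 column per library, with no value at 0 and 0 other sample columns. HISAT2 2.0.5 and mm10 are named in the submitters' processing notes; for the counter, the annotation, the strandedness and filters the sources used here give nothing. Identifiers were matched to GENCODE M21 (17265 matched, 18 did not).

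Exon lengths of M21 gave the depth, since FPKM times length is a whole multiple of 1 step: 97.6 to 98.0% of values under 50 fragments were whole within 0.02. Values were analysed as log2(FPKM + 1), which understates the change of low genes. Genes were tested where at least 3 libraries reached 1 FPKM, with limma 3.58.1 in R 4.3.3, with 4 group means (eBayes with trend and robust, 8 residual degrees of freedom). Benjamini-Hochberg adjustment ran over the 13586 genes, and calls needed an adjusted p under 0.05. The spread is pooled over the 4 groups. The procedure was tested on simulated data.

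The members and the 14 other gene lists were chosen with earlier results of these data known. Adarb2, Cplx3 and Tbr1 each stand in more than 1 list. All members were named. From other lists, up to 4 genes with the smallest p between the strains under vehicle could be named, and Slc17a7, Scnn1a, Nrgn and Cplx3 were added after their values were seen. Of the choroid plexus list 1 of 3 genes, Ttr, was tested, and it was not called between the strains under vehicle (1.06). The list of mitochondrial mRNAs had 13 of 13 lower in BTBR vehicle than in C57 vehicle. Similar patterns were ranked over 12 libraries, leaving out symbols of predicted genes, and up to 3 genes were named for each called member; some genes that the rules would name are not reported here. Promoters are from RefSeq, and all 8 members matched. Python 3.11.15, numpy 2.4.6, pandas 2.3.3 and matplotlib 3.10.9 were used for tables and plots. The alternatives were a pseudocount of 0.1, no filter or one at 5 FPKM, other scalings, voom on recovered fragments, the fit, the replicate block and leaving out each library.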

Additional observations from a re-analysis of the deposited data

Results flagged for a closer look

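The effect of ASIV differed between BTBR and C57 mice for 2 members by the interaction term of the limma fit, which was called higher in 6.91% and lower in 7.36% of all genes. For Cux1 the ASIV difference in BTBR minus that in C57 was 0.57 ± 0.17 (adjusted p = 0.0427), made up of 0.33 in BTBR and -0.24 in C57. For Pou3f2 it was 0.66 ± 0.19 (adjusted p = 0.0390), made up of 0.47 and -0.18. Of these parts only the 0.47 of Pou3f2 in BTBR was called. Of the 3 BTBR ASIV libraries, 3 lay above all BTBR vehicle libraries for both genes, as was so for 19% of all genes. With 1 library left out in turn, the Cux1 call was lost in 9 of 12 cases and the Pou3f2 call in 8 of 12.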

How the results depend on the processing

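The count of 4 members lower in BTBR under vehicle stayed at 4 in each alternative but the filter at FPKM of at least 5, where Cux1 and Rorb were not tested and 3 members were called. Over the other scalings the share of all genes called lower ran from 15% (rescaled to TPM) to 23.9% (rescaled without mitochondrial genes). For ASIV in C57, 0 members were called in every alternative run. For ASIV in BTBR the count of 1 moved to 2 after rescaling without mitochondrial genes, with voom and with the replicate block, and to 0 in the fit on the 6 libraries compared; leaving out 1 library gave 0 to 2. Of all genes, 15.8% were called higher after that rescaling, against 13.7% before it. Between the strains under ASIV the count of 0 became 1 with the replicate block, where 3.05% of all genes were called, and 0 to 1 with 1 library left out. The interaction count of 2 fell to 1 without a filter, with the filter at 5 FPKM and with quantile normalization, and to 0 after rescaling to TPM; leaving out 1 library gave 0 to 2. The interaction was called higher in 7.25% of all genes with quantile normalization and in 4.27% after rescaling to TPM. Rescaling to TPM put the interaction at 0.64 for Cux1 and 0.72 for Pou3f2. The cause was not tested, except that the filter at 5 FPKM left out Cux1. Of 902 recomputed values of single members, 868 kept their side of the threshold, 25 lost a call, 9 gained one and 0 called values changed sign. Libraries share only a replicate number: correlations of deviations between same-numbered libraries ran from -0.17 to 0.28. Those between libraries of unlike number ran from -0.37 to 0.22. With 3 possible partners each, 5 of 12 correlated best with their own number. With the number as a replicate block the share of all genes called was 42.7% between the strains under vehicle and 29.5% for ASIV in BTBR, and Lamp5 between the strains under ASIV had an adjusted p of 0.0292 and Cux1 for ASIV in BTBR one of 0.0473. Depth limits Pou3f2 most, with 219 to 572 fragments.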
